A study of Mus musculus with 15 samples.

Results

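The comparison set IgE-expressing against IgG1-expressing mouse B cells that had not become plasma cells, called iGC cells in the labels, with 3 libraries of each isotype out of 15 in the series. The libraries were taken by their labels as the expected count columns of the 2 groups. All cells were wild-type and were sorted on day 8 of culture: B cells had grown for 6 days on 40LB feeder cells with IL-4 at 100 ng/ml and were then kept off the feeders for 2 days in medium without stimulation. The other groups were the unsorted culture at day 6 and the IgE and IgG1 plasma cells (PC) sorted beside the iGC cells, each with 3 libraries. The series describes the replicates as independent and biological, and it gives no strain, animal or sorting gate. The study's title concerns genome-wide screens and the control of IgE plasma cells by calcium signalling. The comparison asks how the isotypes differed in cells that had not differentiated by day 8. These cells were sorted on the same day as the plasma cells, so they were not sampled before differentiation began.

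40LB cells are fibroblasts that display CD40 ligand and release the survival factor BAFF, and with IL-4 they drive B cells to divide and to switch from IgM to IgG1 and IgE. A switched B cell carries its immunoglobulin on the surface as the B cell receptor, which signals through the kinase Syk and through calcium. In germinal centres such cells are held by the transcription factors Bcl6, Pax5 and Bach2, whereas Prdm1, Irf4 and Xbp1 drive the plasma cell programme of secretion. IgE is the antibody of allergy, and IgE B cells are known for short germinal centre residence and ready differentiation.

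The iGC libraries held 17740876 to 40839778 expected counts, and IgE replicate 3 was the shallowest. In the sums of 10 B cell markers, which were 23012 to 23524 CPM (counts scaled to library size) in IgE and 22650 to 23193 CPM in IgG1, the isotypes overlapped. edgeR's and DESeq2's tests on all 15 libraries each called 0 of the 10, and 2 had an unadjusted edgeR p under 0.05. When edgeR was run on the 6 iGC libraries alone, it called 1 of them higher and 2 lower, beside 10.8% of all genes. Over all 15692 genes tested, DESeq2 called 937, and 1225 higher and 1123 lower genes had an unadjusted edgeR p under 0.05. The feeder fibroblast markers summed to 64.2 to 87.4 CPM in IgE and 44.2 to 78.0 CPM in IgG1 over 15 genes, with Postn at 0. T cell markers summed to 3.00 to 3.89 CPM and 2.46 to 3.09 CPM over 8 genes, with Cd3e, Cd8a and Themis at 0, and mast cell and basophil markers to 0.409 to 0.694 CPM and 0.172 to 0.429 CPM over 7 genes. The 8 myeloid markers summed to 17.1 to 19.5 CPM in IgE and 21.3 to 23.9 CPM in IgG1, with S100a8 and S100a9 at 0, and 1 of them, Adgre1, was lower in IgE (edgeR, adjusted p 0.0245, and up to 0.095 when an iGC library was left out). The 8 plasma cell markers summed to 803 to 924 CPM in IgE iGC and 493 to 551 CPM in IgG1 iGC, against 15256 to 17642 CPM in the plasma cells of the IgE isotype and 8460 to 12722 CPM in those of IgG1. In the day 6 culture the sum was 888 to 926 CPM. Jchain, Slamf7 and Xbp1 gave most of it in IgE iGC, with means of 403, 260 and 177 CPM. At day 6 these 3 were at 4.48, 555 and 301 CPM. The part of these other cell types in the results below was not tested, and in a bulk sample fewer cells of a type and less RNA per cell cannot be told apart.

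The isotype genes followed the labels. Ighe, the constant region gene of IgE, was at 6176, 5809 and 6232 CPM in the IgE libraries and at 319, 367 and 372 CPM in the IgG1 libraries. Ighg1, that of IgG1, was at 857, 972 and 937 CPM in IgE and at 6404, 6089.6 and 6116 CPM in IgG1. Neither gene had overlapping groups, and each isotype held a minor level of the other's transcript. Of the counts of the 2 genes together, Ighe took 86.8% ± 1.08 (SD, n = 3) in IgE and 5.39% ± 0.565 (SD, n = 3) in IgG1. The difference was 81.4 percentage points, and the exact two-sided permutation p was 0.1, the smallest that 3 against 3 libraries can give. In plasma cells of the same isotypes the share ran from 98.5% to 98.6% and from 1.71% to 2.73%, and in the day 6 culture from 17.0% to 17.3%.

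The constant region genes of the heavy chain lie on chromosome 12 on the minus strand (GRCm38, positions from GENCODE vM21), from Ighm at chr12:113418558-113422730 through Ighg1 at chr12:113325240-113330523 and Ighe at chr12:113269260-113273248 to Igha at chr12:113254830-113260236. Class switching deletes the DNA between the first gene and the chosen one. By edgeR's quasi-likelihood test with Benjamini-Hochberg adjustment over the 15692 genes tested, Ighe was higher in IgE iGC with a log2 fold change of 4.11 ± 0.14 (SE, adjusted p 2.79e-10) and Ighg1 was lower at -2.75 ± 0.14 (adjusted p 3.37e-08). Ighm, the constant gene of IgM, was at 203, 237 and 209 CPM in IgE and at 395, 356 and 341 CPM in IgG1, without overlap, a log2 difference of -0.75 ± 0.09 (edgeR, adjusted p 0.000126). Ighg2b, the gene next after Ighg1, was at 5.07 CPM ± 0.0975 in IgE and 40.0 CPM ± 0.770 in IgG1 (SD, n = 3), a log2 difference of -2.97. Ighd was lower at -0.88 and Igha, downstream of Ighe, was higher at 0.69. Both calls were lost when some iGC libraries were left out, with an adjusted p of up to 0.146 and 0.121. Ighg3 at -0.58 and Ighg2c at -2.14 did not pass with all 15 libraries (edgeR, adjusted p 0.13 and 0.0976) and passed in the 6 iGC libraries alone (0.00975 and 0.00446). The IgG constant genes resemble one another, and RSEM divided reads between genes in 13 libraries for Ighg1, 10 for Ighg2b and 0 for Ighe, so the low levels of Ighg2b and Ighg2c are uncertain.

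**Figure D1:**
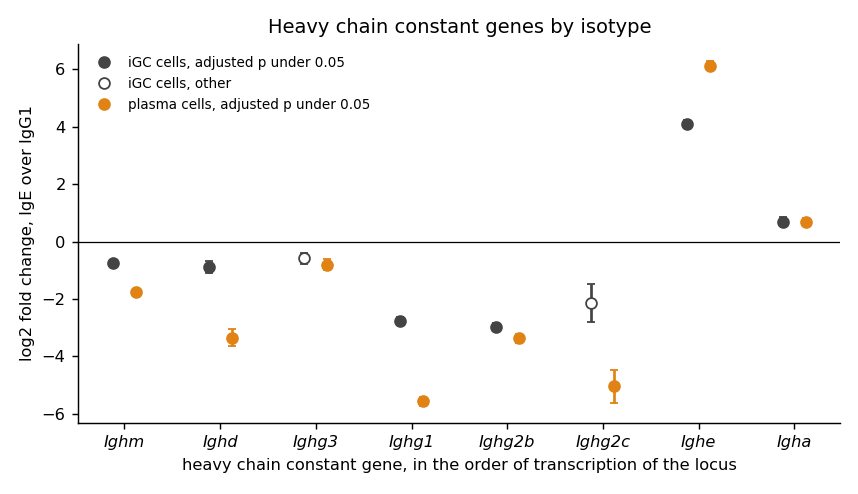
Log2 fold change of IgE over IgG1 (vertical axis, with bars of 1 SE) for 8 heavy chain constant genes in the order of transcription, in iGC cells (grey) and plasma cells (orange), filled where the adjusted p was under 0.05. Ighe stood at 4.11 in iGC and 6.13 in plasma cells, and Ighg1 at -2.75 and -5.55.

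The J chain and some of the variable segments passed the test as higher in IgE as well. Jchain, which links IgM and IgA into polymers, was at 437, 392 and 380 CPM in IgE and at 150, 149 and 151 CPM in IgG1, and the groups did not overlap. Its log2 difference was 1.42 ± 0.18 (edgeR, adjusted p 0.000282). Of 120 heavy chain variable genes tested, 36 were called higher and 0 lower, with a median log2 difference of 0.57. Of 107 kappa variable genes 7 were called higher and 0 lower, with a median of 0.37. Over all genes tested, 1.99% were called higher. Most variable genes thus did not pass, but 109 of the 120 and 102 of the 107 had a positive difference, against 52.1% of all genes. Their summed levels were 754 to 851 CPM against 529 to 538 CPM for the heavy chain and 1540 to 1715 CPM against 1241 to 1280 CPM for kappa, so the isotypes did not overlap in either sum. The 3 lambda variable genes tested had a median of 0.41. The edgeR test called 0 of them and DESeq2 2, and all 3 had an unadjusted edgeR p under 0.05.

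Over all genes, 607 of 15692 passed the test (3.87%), of which 312 were higher (1.99%) and 295 lower (1.88%) in IgE iGC. A change of at least 2-fold was seen in 124 (0.79%), 39 higher and 85 lower, and the median log2 difference over all genes was 0.01. In all 607 the replicates of the isotypes did not overlap, which held for 27.5% of all genes tested. The count depended on which libraries entered the fit. Without any 1 of the iGC libraries it fell to between 323 and 403, each of the 6 lowering it, whereas it rose to 1219 without IgG1 PC replicate 1, to 1559 without the 3 IgG1 PC libraries, and to 1503 of 13936 genes (10.8%) in the 6 iGC libraries alone. The biological coefficient of variation was 19.6% among the IgG1 PC libraries and 6.44% to 8.13% in the other groups.

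Among the 14 largest rises, which were taken with at least 10 CPM in a group and outside the immunoglobulin genes, a germinal centre gene led. Gcsam, the germinal centre associated signalling and motility protein (chr16:45610380-45622867), was at 48.1, 43.2 and 43.6 CPM in IgE and at 10.9, 7.81 and 8.23 CPM in IgG1. All IgE libraries lay above all IgG1 libraries, with a log2 difference of 2.32 ± 0.14, or 5.0-fold (edgeR, adjusted p 1.66e-07). Eaf2, a partner of the elongation factor ELL that is high in plasma cells (chr16:36792884-36875003), followed with 40.4, 32.9 and 38.2 CPM against 11.8, 10.2 and 9.76 CPM. Its groups did not overlap, and its log2 difference was 1.81 ± 0.15 (edgeR, adjusted p 8.12e-06). S1pr2, the sphingosine-1-phosphate receptor that keeps germinal centre B cells in the follicle, was at 68.8, 61.9 and 59.1 CPM against 35.7, 33.6 and 33.5 CPM, a log2 difference of 0.89 ± 0.08 (edgeR, adjusted p 8.12e-06). No IgG1 library reached the lowest IgE library.

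The other rises spanned several kinds of protein. Cryz, a quinone reductase, was at 16.9 CPM ± 1.35 in IgE and 6.25 CPM ± 0.422 in IgG1 (SD, n = 3), a log2 difference of 1.44. Hmces, which shields abasic sites in DNA, was at 26.0 CPM ± 0.142 and 11.9 CPM ± 1.64 (1.13). Hdac9, a class IIa histone deacetylase, was at 41.3 CPM ± 2.78 and 20.1 CPM ± 2.19 (1.04). None of these genes had overlapping groups. Slc24a2, an exchanger of sodium for calcium and potassium, was at 19.9 CPM ± 0.564 and 7.83 CPM ± 1.33 (1.34), and Pip5k1b, which makes the phosphoinositide that phospholipase C cleaves, at 11.3 CPM ± 1.03 and 6.19 CPM ± 0.247 (0.87). Sec24d, a coat protein of vesicles leaving the endoplasmic reticulum, was at 11.5 CPM ± 0.312 and 5.42 CPM ± 0.608 (1.09). Crisp3, a secreted cysteine-rich protein, Nes, the intermediate filament nestin, Sspn, the membrane protein sarcospan, and Trerf1, a zinc finger regulator, differed by 1.13, 1.14, 0.98 and 1.34. Otud1, a deubiquitinase, spread most: it was at 42.5, 35.7 and 25.2 CPM in IgE and at 20.9, 14.3 and 12.9 CPM in IgG1, the groups lay close to each other, and its log2 difference of 1.11 lost its call in the 6 iGC libraries alone (edgeR, adjusted p 0.1) and without some of them (up to 0.0546).

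Among the 14 largest falls, taken with the same limits, a chemokine gene led. Ccl22, the ligand of CCR4 that draws T cells to activated B cells (chr8:94745590-94751699), was at 70.2, 73.1 and 78.6 CPM in IgE and at 242, 247 and 265 CPM in IgG1. The groups were far apart, with a log2 difference of -1.77 ± 0.19 (edgeR, adjusted p 0.00014). Mpeg1, the pore-forming perforin-2 (chr19:12460779-12465283), was at 22.6, 22.8 and 23.5 CPM against 71.9, 76.1 and 77.8 CPM, also without overlap, and differed by -1.71 ± 0.19 (edgeR, adjusted p 0.00014). Bhlhe40, an activation-induced transcriptional repressor, was at 50.9, 51.7 and 48.9 CPM against 121, 122 and 125 CPM. Its IgG1 libraries all exceeded its IgE libraries, and the difference was -1.28 ± 0.11 (edgeR, adjusted p 8.12e-06). Ptprj, the receptor phosphatase CD148 that acts on Src family kinases, was at 6.25, 6.66 and 7.18 CPM against 18.9, 18.7 and 18.9 CPM, a difference of -1.50 ± 0.13 (edgeR, adjusted p 9.86e-06).

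The other 10 falls were in genes of several kinds. Cobl, an actin nucleator, was at 6.70 CPM ± 0.0436 in IgE and 18.9 CPM ± 2.47 in IgG1 (SD, n = 3), a log2 difference of -1.50, and Ppl, the cytolinker periplakin, at 5.02 CPM ± 0.142 and 13.4 CPM ± 0.824 (-1.41). Plbd1, a lysosomal phospholipase-like protein, differed by -1.38, and Dtx4, a Deltex ubiquitin ligase of the Notch pathway, by -1.27. The G protein-coupled receptor Adgrg1 differed by -1.26, the vasoactive peptide Adm by -1.22, and the glutamate receptor Grm6 by -1.14. Gbp7, an interferon-inducible GTPase, differed by -1.10, and its reads were divided with other genes in all 15 libraries. Gpr34, a lysophosphatidylserine receptor, at -1.32 and Shank1, a synaptic scaffold, at -1.31 passed the test with all libraries but had adjusted p-values of up to 0.143 and 0.0518 when an iGC library was left out.

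**Figure D2:**
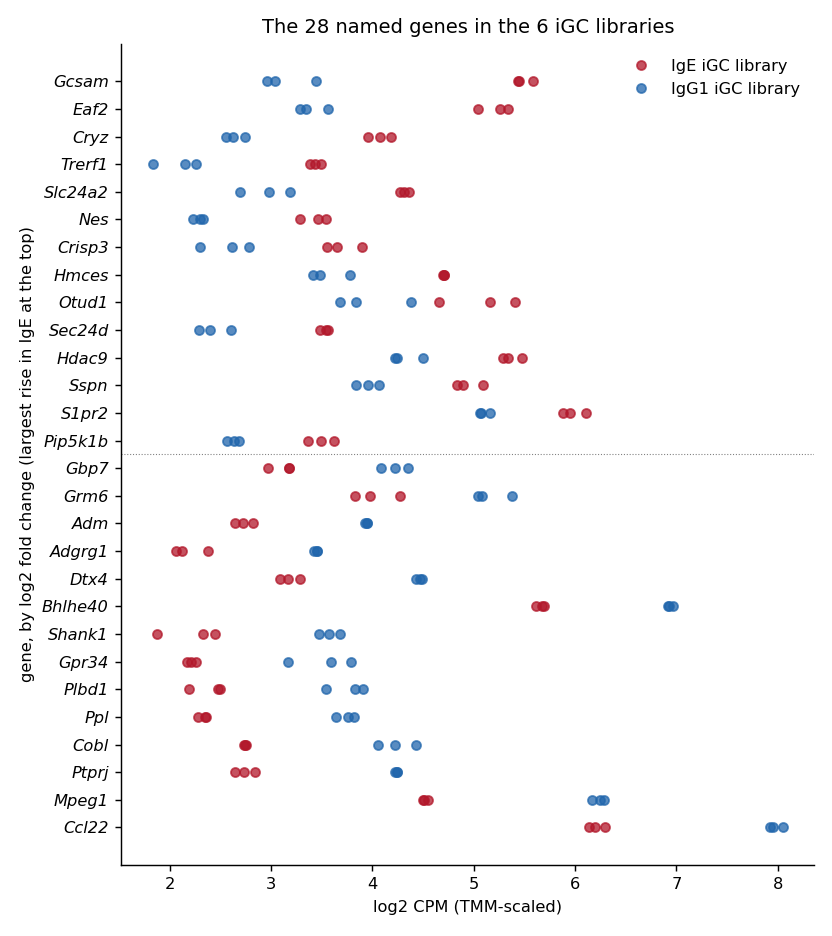
Log2 CPM (horizontal axis) of the 14 largest rises and 14 largest falls within the limits given above, in the 3 IgE (red) and 3 IgG1 (blue) iGC libraries, one row per gene, ordered by log2 fold change. No row has overlapping colours; Gcsam sits at the top with 45.0 against 8.98 CPM on average and Ccl22 at the bottom with 74.0 against 251 CPM.

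The gene lists covered 482 genes, of which 473 were tested and 71 called (15%, against 3.87% of all genes). The lists were chosen with earlier results of these data known, and they include the constant genes by which the isotypes are labelled. The gap between these shares may thus follow in part from the choice of genes, and enrichment was not tested. The share called differed between lists and was near that of all genes in some, such as calcium handling (5.26%), mitosis (5.0%) and glycolysis (6.67%). Some lists below are also given with counts by DESeq2 or at an unadjusted edgeR p under 0.05. Over all 15692 genes these were 937 by DESeq2, and 1225 higher and 1123 lower at that p. Of those 71 calls, 33 were kept when each iGC library was left out in turn. For the other 38 the adjusted p then reached between 0.0518 and 0.243, and where such a gene is named below that highest value is given.

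Germinal centre markers gave 4 higher and 1 lower of 19 tested, with a list median of 0.08. Besides Gcsam and S1pr2, Neil1, a DNA glycosylase, was at 271, 268 and 292 CPM in IgE and at 186, 184 and 194 CPM in IgG1, without overlap (log2 difference 0.56, edgeR adjusted p 0.00202). Nuggc, a nuclear GTPase of germinal centre B cells, was higher by 0.76 (up to 0.0533). Cd38, an ectoenzyme that mouse germinal centre B cells reduce, was lower by -0.57 (up to 0.0518). Bcl6 stood at 124 CPM ± 3.82 in IgE and 99.6 CPM ± 12.4 in IgG1 (SD, n = 3) and was not called (edgeR, adjusted p 0.13).

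B cell transcription factors gave 1 higher and 1 lower of 22. Tcf3, which encodes E2A, was higher by 0.25 (up to 0.106) and Id2, an inhibitor of E proteins, lower by -0.72 (up to 0.126). Pax5, the B cell identity factor, was at 747 CPM ± 18.0 in IgE and 838 CPM ± 46.5 in IgG1, a log2 difference of -0.17, and Bach2, a repressor of Prdm1, at 142 CPM ± 2.64 and 108 CPM ± 14.2, a difference of 0.40 (SD, n = 3). Neither passed with all 15 libraries (edgeR, adjusted p 0.71 and 0.286), and both passed in the 6 iGC libraries alone (0.032 and 0.029).

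Plasma cell regulators and surface markers were higher or not called, and none was lower. Among 12 regulators 4 were higher (median 0.16), and among 14 surface genes 4 were higher (median 0.27). Bhlha15, which encodes the secretory factor Mist1, was at 3.23, 2.36 and 2.32 CPM in IgE and at 1.03, 0.805 and 0.550 CPM in IgG1, without overlap (log2 difference 1.74 ± 0.26, edgeR adjusted p 0.000942). Cd93, a receptor of long-lived plasma cells, was at 101, 100 and 106 CPM against 63.1, 57.5 and 62.3 CPM, also without overlap (0.75 ± 0.07, edgeR adjusted p 1.64e-05). Tnfrsf17, the BCMA receptor for APRIL and BAFF, had 19, 17 and 10 reads in the IgE libraries and 3, 1 and 3 in the IgG1 libraries (edgeR, adjusted p 0.00107). Creb3l2, a membrane-bound factor of the secretory programme, was higher by 0.47 and Ly6c2, whose sequence resembles that of Ly6c1, by 1.20. Prdm1, which encodes Blimp-1, was higher by 0.59 at 5.90 CPM ± 0.955 against 3.99 CPM ± 0.400 (SD, n = 3; up to 0.243). Irf4 and Xbp1 differed by 0.10 and 0.40 and were not called (edgeR, adjusted p 0.59 and 0.0843), nor was Sdc1, which encodes CD138, at 2.17 CPM ± 0.184 and 1.41 CPM ± 0.408 (0.193). Xbp1 passed under 7 of 23 alternatives, among them the 6 iGC libraries alone (edgeR, adjusted p 0.00452).

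The markers in the plasma cell sum given above are themselves among the genes described here, so that sum is no separate measure. Against plasma cells of the same isotype, Sdc1 in iGC cells was at 0.666% of the PC level in IgE and 0.830% in IgG1. Bhlha15 was at 0.840% and 0.415%, Jchain at 3.19% and 2.09%, Prdm1 at 2.62% and 2.01%, and Tnfrsf17 at 5.66% and 1.56%. Xbp1 was at 9.27% and 7.09%, Derl3 at 1.23% and 1.38%, and Slamf7, a receptor of the SLAM family, at 53.7% and 80.1%. The 8 markers stood at different fractions of their plasma cell level, and 3 of them, Sdc1, Derl3 and Slamf7, were at a lower fraction in IgE than in IgG1. For these 3 the PC level that divides was itself higher in IgE, at 326 against 170 CPM, 394 against 170 CPM and 483 against 287 CPM. Their iGC levels were also higher in IgE, at 2.17 against 1.41 CPM, 4.84 against 2.35 CPM and 260 against 230 CPM. All 8 markers had a positive log2 difference in iGC cells, and edgeR called 5 of them higher. How much of each difference came from plasma cells in the sort was not tested.

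Genes of folding and secretion in the endoplasmic reticulum gave 3 higher and 0 lower of 30, with a median of 0.16 against 0.01 over all genes, and 29 of the 30 had a positive difference, against 52.1% of all genes. In the 6 iGC libraries alone the list gave 15 higher and 1 lower, in a fit that called more of all genes (10.8%, against 3.87%). Of 13936 genes tested there, 764 were higher and 739 lower. Txndc5, a protein disulphide isomerase, was at 578, 560 and 524 CPM in IgE and at 312, 303 and 294 CPM in IgG1, without overlap (0.87 ± 0.11, edgeR adjusted p 0.000304). Ern1, which encodes the stress sensor IRE1, was at 15.2 CPM ± 0.385 and 10.7 CPM ± 0.675 (SD, n = 3; log2 difference 0.50), and Derl3, a factor of protein disposal, was higher by 1.06 (up to 0.0909). The integrated stress response list gave 0 of 18 called by edgeR and 5 by DESeq2, with 8 at an unadjusted edgeR p under 0.05 and a median of 0.22. Its smallest p-values were those of Mthfd2, a mitochondrial folate enzyme (0.24), and Atf5, a stress-induced factor (0.36). In the 6 iGC libraries alone 7 of the 18 were higher, beside 764 of all 13936 genes in that fit.

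B cell receptor signalling gave 2 higher and 2 lower of 34, with a median of 0.02. Syk, the kinase that the receptor activates first, was at 226, 226 and 241 CPM in IgE and at 389, 379 and 398 CPM in IgG1. The groups did not overlap, and the log2 difference was -0.75 ± 0.06, or 1.68-fold lower (edgeR, adjusted p 6.19e-06). Cblb, a ubiquitin ligase that restrains the receptor, was lower by -0.58 (edgeR, adjusted p 0.0059). The exchange factor Vav3 was higher by 0.44 (up to 0.0705). Cd79a, a chain of the receptor itself, was at 1655 CPM ± 60.1 and 1714 CPM ± 52.8 and was not called (edgeR, adjusted p 0.858).

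Inhibitory receptors and phosphatases gave 5 higher and 4 lower of 23. Besides Ptprj, Fcrl5, an Fc receptor-like protein, was lower, with 11, 10 and 5 reads in IgE against 54, 43 and 44 in IgG1 (-2.24 ± 0.31, edgeR adjusted p 0.000572). Lilr4b, a paralogue-rich leukocyte receptor, and Ptpn22, a phosphatase of Src kinases, were lower by -1.05 (up to 0.137) and -0.29 (up to 0.168). Cd72, an inhibitory co-receptor, Cd200, a ligand that restrains myeloid cells, the adaptors Dok3 and Sit1, and Fcrla were higher by 0.33 to 0.45. Their adjusted p-values reached 0.155, 0.0741, 0.083, 0.182 and 0.152 without an iGC library.

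The calcium list gave 1 higher and 1 lower of 38, with a median of 0.02 and members from -0.40 to 0.29. Ppp3ca, the catalytic subunit of calcineurin, was at 136, 142 and 136 CPM in IgE and at 165, 158 and 164 CPM in IgG1. These groups did not overlap, but the difference of -0.23 was lost without each of the 6 iGC libraries (up to 0.138). Micu2, a gatekeeper of the mitochondrial calcium uniporter, was higher by 0.25 (up to 0.197). Stim1, the calcium sensor of the endoplasmic reticulum, and Nfatc1, a factor that calcineurin activates, differed by 0.16 and 0.15 and were not called (edgeR, adjusted p 0.163 and 0.251).

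Activation-induced genes gave 10 lower and 2 higher of 38, with a median of -0.07. Nr4a1, an immediate target of antigen receptor signalling, was at 1.96, 2.08 and 1.91 CPM in IgE and at 5.39, 5.13 and 4.35 CPM in IgG1. The groups were separate, with a log2 difference of -1.32 ± 0.16 (edgeR, adjusted p 0.000235). Its relative Nr4a3 had 32, 26 and 18 reads against 147, 106 and 109 (-2.04 ± 0.27, edgeR adjusted p 0.000356). Egr3, another early factor, was lower by -0.93 (up to 0.128). Icam1, the adhesion ligand of LFA-1, was at 73.3 CPM ± 2.67 and 95.9 CPM ± 2.78 (SD, n = 3; -0.39), and Traf1 and Nfkbie, both targets and regulators of NF-kB, were lower by -0.36 (up to 0.109) and -0.35 (up to 0.0785).

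The chemokine genes Ccl3 and Ccl4, whose products draw T cells and monocytes, were near 0 reads in IgE: Ccl3 had 2, 1 and 1 reads against 29, 12 and 16, and Ccl4 had 0, 1 and 0 against 14, 9 and 10. Their adjusted p-values reached 0.0953 and 0.0891 without an iGC library. Spry2, an inhibitor of receptor kinase signalling, was higher by 0.78 (edgeR, adjusted p 0.00186), and Dusp4, a phosphatase of MAP kinases, by 0.47 (up to 0.214). Egr1, an early factor of the same family as Egr3, was at 121, 160 and 276 CPM in IgE and at 155, 145 and 154 CPM in IgG1, so its IgE libraries spread on both sides of the IgG1 libraries, and it was not called (edgeR, adjusted p 0.712). Myc was at 104 CPM ± 10.6 and 113 CPM ± 12.4 (SD, n = 3) and was not called (0.613).

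**Figure D3:**
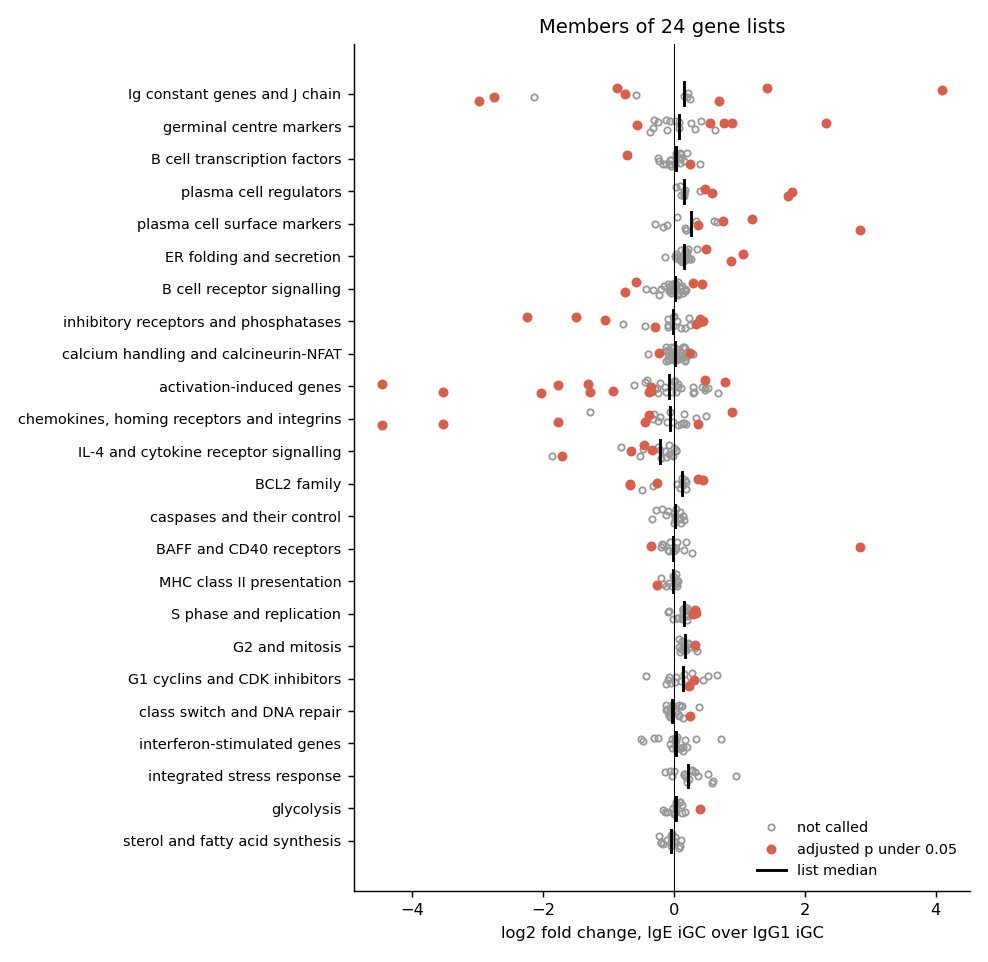
Log2 fold change of IgE over IgG1 iGC cells (horizontal axis) for every tested member of 24 gene lists, red where the adjusted p was under 0.05, with black bars at list medians. The medians of the plasma cell lists lie to the right of 0 (0.16 and 0.27), with 3 of the 14 surface genes to its left, and that of the cytokine receptor genes lies to the left (-0.21), while most members of the calcium list lie close to 0.

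Cytokine receptor signalling gave 4 lower and 0 higher of 20, with a median of -0.21 and 2 members above 0. In the 6 iGC libraries alone 8 were lower and 0 higher, beside 739 lower and 764 higher of all 13936 genes in that fit. Il2ra, the alpha chain of the IL-2 receptor, was at 1.64, 1.47 and 1.55 CPM in IgE and at 5.05, 4.29 and 5.91 CPM in IgG1, without overlap (-1.70 ± 0.21, edgeR adjusted p 0.00023). Il10ra, a chain of the IL-10 receptor, was at 45.5 CPM ± 3.85 and 62.3 CPM ± 2.29 (SD, n = 3; -0.46), and Il9r, the IL-9 receptor, at 431 CPM ± 12.9 and 681 CPM ± 9.49 (-0.66, up to 0.0705). Batf, an AP-1 family factor, was lower by -0.33 (up to 0.106). Of the homing genes not yet named, the integrin chain Itgb1 was lower by -0.45 (edgeR, adjusted p 0.00143) and Itgb7 higher by 0.37 (up to 0.109).

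The BCL2 family gave 2 higher and 3 lower of 15. The survival genes Bcl2a1b and Bcl2a1d were lower, at 67.4 CPM ± 3.73 against 107 CPM ± 11.3 and at 44.4 CPM ± 1.02 against 70.5 CPM ± 7.73 (SD, n = 3; -0.66 and -0.67). They are near-identical copies whose reads were divided, so the split between them is uncertain. The pro-apoptotic genes Bmf and Bbc3 were higher by 0.37 (up to 0.128) and 0.45 (up to 0.124), whereas Bid, which caspases cleave, was lower by -0.25 (up to 0.0709). Bcl2 and Bcl2l11, which encode a guardian and the killer Bim, differed by 0.19 and 0.12 and were not called (edgeR, adjusted p 0.281 and 0.272). Of 17 caspase genes and regulators edgeR called 0 and DESeq2 1, against 937 of all 15692 genes by DESeq2. Of the 17, 3 had an unadjusted edgeR p under 0.05, as did 1225 higher and 1123 lower of all genes. Birc2 (-0.34) and Cflar (-0.27), both inhibitors of cell death, had the smallest p-values of the 17. In the 6 iGC libraries alone 0 of the 17 were higher and 2 lower, beside 764 and 739 of all 13936 genes. Among 15 BAFF and CD40 receptor genes Tnfrsf17 was higher and Traf1 lower.

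Cell cycle genes were called only higher, and few passed. Replication genes gave 3 higher of 20 (median 0.15), mitotic genes 1 of 20 (median 0.17) and G1 regulators 2 of 16 (median 0.14). All 20 mitotic genes had a positive difference, as did 52.1% of all genes. Cdt1, which licenses origins, was at 43.3 CPM ± 0.893 in IgE and 35.3 CPM ± 0.772 in IgG1 (SD, n = 3; 0.29) and Cdc45, part of the replicative helicase, at 36.9 CPM ± 2.40 and 29.0 CPM ± 0.456 (0.34). Rrm2, a subunit of ribonucleotide reductase, was higher by 0.33 (up to 0.0724), the kinases Cdk1 and Cdk2 by 0.32 (up to 0.106) and 0.23 (up to 0.155), and the inhibitor Cdkn2c by 0.30 (up to 0.182).

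The other lists held few calls. Parp1, a sensor of DNA breaks, was the 1 higher of 20 class switch and repair genes (0.25, up to 0.073), and Pfkp, a phosphofructokinase, the 1 higher of 15 glycolysis genes (0.41, up to 0.0658). Ifi30, a lysosomal thiol reductase, was the 1 lower of 13 MHC class II genes (-0.25, up to 0.12). Of 20 interferon-stimulated genes and of 17 sterol and fatty acid genes 0 were called by edgeR's quasi-likelihood test, while DESeq2 called 1 and 0, and 3 and 1 had an unadjusted edgeR p under 0.05. Cmpk2 (0.72) and Ifih1 (-0.51) had the smallest p-values of the former, and Fasn (-0.16) and Idi1 (-0.22) of the latter. In the 6 iGC libraries alone the interferon list gave 2 higher and 1 lower. The sterol and fatty acid list there gave 0 higher and 4 lower, and the MHC class II list 0 and 3. Class switch and repair gave 2 higher and 0 lower, and glycolysis 1 and 0. Of all 13936 genes in that fit, 764 were higher and 739 lower.

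The differences in iGC cells were then set beside those in plasma cells, which used 6 other libraries. There, 9119 genes passed (58.1%), 4303 higher (27.4%) and 4816 lower (30.7%) in IgE. The plasma cell sorts also differed in marker sums. The feeder fibroblast markers summed to 27.0 to 42.5 CPM in IgE PC and 82.1 to 217 CPM in IgG1 PC. B cell markers summed to 12728 to 12778 CPM and 16143 to 17923 CPM. For 13 mitochondrially encoded genes the sums were 21321 to 22685 CPM and 12478 to 17060 CPM. The part of these gaps in the PC differences was not tested. Of the 312 genes higher in IgE iGC, 166 (53.2%) were also higher in IgE PC, 74 were lower and 72 were not called. Of the 295 genes lower in IgE iGC, 234 (79.3%) were also lower in IgE PC, 27 were higher and 34 were not called. The median log2 difference of the former went from 0.49 in iGC to 0.27 in PC, and that of the latter from -0.67 to -1.41. These genes were chosen by their calls in iGC cells and not by those in PC. The PC test and the test between stages below took a spread per gene that all groups shared. The IgG1 PC libraries spread more than the other groups (19.6% against 6.44% to 8.13%), so the p-values of both tests may be too small.

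The 14 largest falls were all lower in IgE PC too, and 12 of them differed more there by edgeR's test of the difference between the stages. That test passed for 42.9% of all genes, and one of its terms is the iGC difference by which the genes were chosen. On log2(TPM + 1) with limma 3 of the 12 kept this call, 7 lost it, and Ppl and Gpr34 turned positive (0.36 and 0.0765). Ccl22 was at 5.52, 6.44 and 6.59 CPM in IgE PC, whereas IgG1 PC had 147, 292 and 269 CPM, so its log2 difference of -1.77 in iGC became -5.26. Bhlhe40 was at 9.0, 7.80 and 6.76 CPM against 43.4, 54.8 and 56.3 CPM, and its difference went from -1.28 to -2.71. In the day 6 culture the 2 genes were at 1106 CPM ± 158 and 35.9 CPM ± 4.66 (SD, n = 3). Mpeg1 was the exception among the called ones, with -1.71 in iGC and -0.82 in PC, and for Ptprj, at -1.50 and -1.07, the stages were not called different (edgeR, adjusted p 0.086). Under 4 of 21 alternatives Mpeg1 lost its stage call, and under 4 Ptprj gained one.

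The 14 largest rises split. In IgE PC 7 were higher, 4 lower and 3 not called. Gcsam kept its difference, 2.32 in iGC and 2.24 in PC, at lower PC levels of 12.5 CPM ± 1.3 for IgE and 2.61 CPM ± 0.461 for IgG1 (SD, n = 3). Hdac9 and Crisp3 differed more in PC (2.66 and 2.42), and so did Pip5k1b (1.3). The stage difference of Pip5k1b lost its call under 3 of 21 alternatives, and those of Hdac9 and Crisp3 under 0. Trerf1, Cryz, Otud1 and S1pr2 were higher in IgE iGC and lower in IgE PC, with PC differences of -1.09, -0.56, -0.75 and -0.40. Sspn and Hmces, at 0.98 and 1.13 in iGC, were at -0.03 and -0.20 in PC and not called there (edgeR, adjusted p 0.8 and 0.14). Cd72 had the largest gap between stages among the called list members, from 0.40 in iGC to -3.73 in PC, where it was at 4.76 CPM ± 0.974 in IgE and 63.2 CPM ± 8.04 in IgG1.

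**Figure D4:**
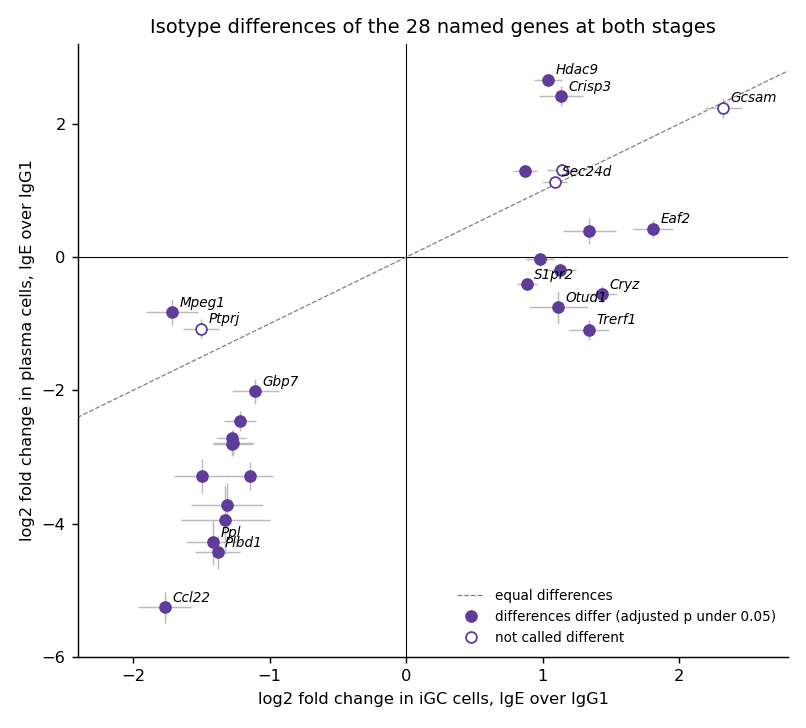
Log2 fold change of IgE over IgG1 in iGC cells (horizontal axis) and in plasma cells (vertical axis), with bars of 1 SE, for the same 28 genes. Points below the dashed line of equal differences on the left differed more in plasma cells; the filled points, 24 of 28, had called differences between the stages, and Gcsam (2.32 and 2.24) lies near the line.

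Syk showed the same order of isotypes at both stages, with PC levels of 137 CPM ± 4.27 for IgE and 291 CPM ± 7.19 for IgG1 (SD, n = 3), a log2 difference of -1.08 against -0.75 in iGC. The gap between these was called (-0.33, edgeR adjusted p 0.0059). Nr4a1 in IgE PC was at 0.609, 0.695 and 0.384 CPM against 4.27, 4.36 and 4.97 CPM in IgG1 PC (-2.99). Ppp3ca changed sides, from -0.23 in iGC to 0.47 in PC.

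**Figure D5:**
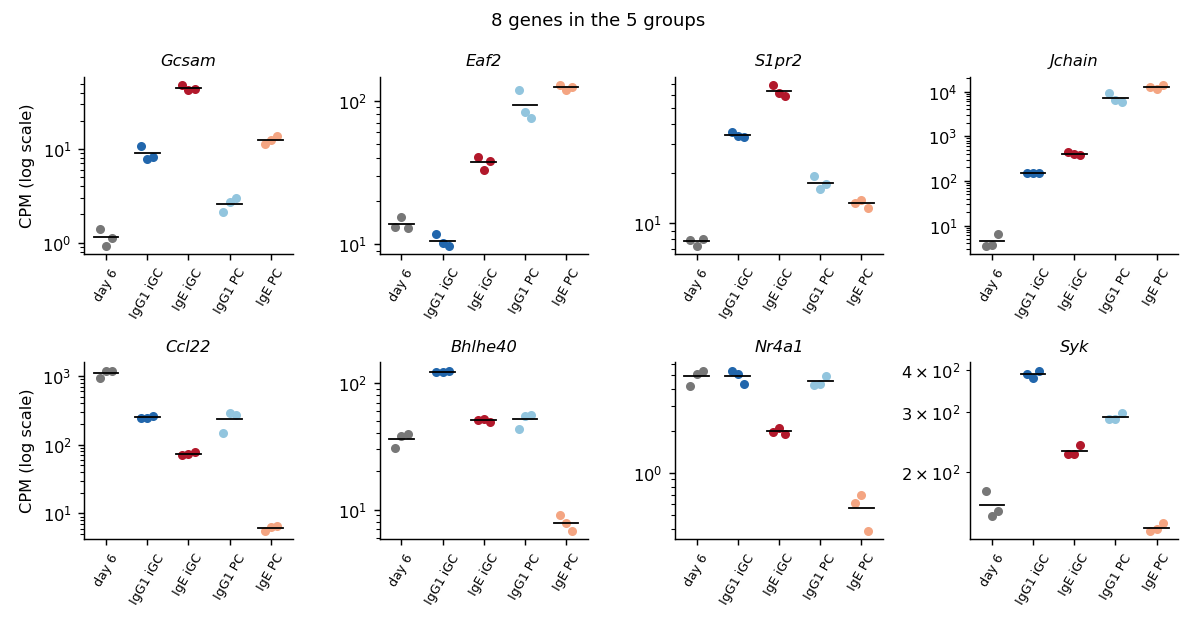
CPM (log scale) of 8 genes in each library of the 5 groups, with a bar at the mean. Gcsam and S1pr2 are highest in IgE iGC, Eaf2 and Jchain stand higher in both plasma cell groups, and Ccl22, Bhlhe40, Nr4a1 and Syk are lower in IgE than in IgG1 at both stages.

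The promoters of Gcsam and Ccl22, which led the rises and falls among genes of at least 10 CPM outside the immunoglobulin genes, are printed to show the sequence next to these values, as 250 bases before and 50 after a RefSeq start site (GRCm38.p6, 5′ to 3′ on the strand of the gene, both plus). Capitals mark a match to 1 of 8 motifs searched on both strands: NF-kB (GGG and CC, 5 bases apart), STAT6 (TTC and GAA, 4 apart), AP-1 TGANTCA, the E2A E-box CAGGTG, ETS-IRF (GGAA and GAAA, 2 apart), the ER stress element (CCAAT and CCACG, 9 apart), EGR GCGNGGGCG and NR4A AAAGGTCA.
Gcsam, chr16:45610190-45610489: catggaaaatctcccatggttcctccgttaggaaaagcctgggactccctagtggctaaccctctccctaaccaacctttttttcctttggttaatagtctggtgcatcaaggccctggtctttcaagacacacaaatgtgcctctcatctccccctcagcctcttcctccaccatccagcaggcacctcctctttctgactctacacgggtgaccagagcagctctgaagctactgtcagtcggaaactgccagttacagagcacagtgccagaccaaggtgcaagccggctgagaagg
Ccl22, chr8:94745434-94745733: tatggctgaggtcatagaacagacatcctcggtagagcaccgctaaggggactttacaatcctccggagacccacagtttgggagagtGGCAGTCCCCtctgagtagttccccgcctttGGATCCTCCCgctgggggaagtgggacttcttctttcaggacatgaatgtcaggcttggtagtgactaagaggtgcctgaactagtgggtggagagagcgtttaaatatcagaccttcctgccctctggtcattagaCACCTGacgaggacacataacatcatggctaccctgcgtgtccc

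The Gcsam window held no match to these letters. The Ccl22 window held 2 matches to the NF-kB letters and 1 to the E-box letters, none overlapping another. Such matches are common: at least 1 window of 71.2% of the 10549 tested genes with a promoter entry held the NF-kB letters and 20.9% the E-box letters, and over all 32851 windows 50.8% and 20.2% did. The called genes with an entry were 209 higher and 226 lower in IgE iGC. The AP-1 letters were in 6.21% of the tested genes, in 7.18% of the higher and in 12.8% of the lower genes, and the E-box letters in 22% of the higher and 26.1% of the lower. The order was the other way for EGR (11.8% of tested genes, 17.2% of the higher, 10.6% of the lower), NF-kB (78.5% and 72.6%), STAT6 (6.57%, 9.09% and 7.52%) and ETS-IRF (2.85%, 4.78% and 4.42%). The NR4A letters were in 1 higher and 4 lower genes and the ER stress element in 1 and 0. Those shares are descriptions and were not tested.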

How the data were processed

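PolyA RNA libraries (KAPA mRNA HyperPrep, single-end and strand-specific, per the labels' protocols) gave 1 deposited table of 51912 Ensembl genes. It holds RSEM expected counts, which need not be whole where reads fit several genes, and TPM, scaled by the authors for length and total, per the file headers. The submitters' processing notes name cutadapt 1.9.1, STAR 2.5.2a, RSEM 1.3.0, DESeq2 1.12.3 and GRCm38, with no role or order; the annotation is not given in the sources used here. The number of unmapped columns was 0, and 51633 identifiers had a symbol.

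Expected counts were rounded, filtered with filterByExpr (minimum count 10, minimum total 15; 15692 genes left) and TMM-scaled. edgeR 4.0.16 in R 4.3.3 (glmQLFit, robust, and glmQLFTest) was run on the 15 libraries together, each group having its own mean. Genes with a Benjamini-Hochberg adjusted p under 0.05 were called. The biological coefficient of variation was 10.4% with 10 residual degrees of freedom. SEs are approximate, being the fold change divided by the root of the F statistic. CPM uses TMM-scaled totals. The procedure was also run on simulated counts with the same spread in every group, unlike the data, where the IgG1 PC libraries spread more. Shares were compared by exact permutation (scipy 1.17.1).

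Alternatives were DESeq2 1.42.0, limma 3.58.1 on log2(TPM + 1) and log2(TPM + 0.1), other scalings and filters, a replicate block, and libraries left out. Named genes are Ighe, Ighg1 and Ighm, the 14 largest called rises and falls reaching 10 CPM without overlap (immunoglobulin genes with Jchain, predicted genes and pseudogenes left out), called list members, the 2 smallest p-values of lists with no call, and 18 anchor genes; some of these are not reported here. Ighd, Ighg3 and other constant genes complete the locus. The comparison, lists and genes were chosen with earlier results of these data known. Of the 28 largest differences 3 had divided reads and 4 overlapped a gene on the same strand. Positions are from GENCODE vM21.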

Additional observations from a re-analysis of the deposited data

Results flagged for a closer look

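For the genes below the isotype difference in plasma cells was not the one in iGC cells by a test of the difference between the stages (edgeR's quasi-likelihood test, Benjamini-Hochberg adjusted p under 0.05). This test passed for 42.9% of all genes. It shared the spread between groups, with a common coefficient of variation of 10.4% against 19.6% among the IgG1 PC libraries. Its p-values may thus be too small. Each value is the log2 difference of IgE over IgG1 in PC minus that in iGC, and no explanation was weighed. Of the 89 called stage differences below, 58 kept their call under every alternative run and 31 lost it or reversed under at least 1. Of these, 6 did so under 7 or more of 21: Nr4a3 under 15, Cd93 under 13, Bcl6 under 10, Dok3 under 9, Micu2 under 8 and Creb3l2 under 7.

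Among constant genes, Ighe moved by 2.02, Ighg1 by -2.80, Ighg2c by -2.90, Ighd by -2.47 and Ighm by -1.0. Of the largest falls in iGC, the values were -3.49 for Ccl22, -3.05 for Plbd1, -2.87 for Ppl, -2.62 for Gpr34, -2.41 for Shank1 and -2.15 for Grm6. They were -1.79 for Cobl, -1.54 for Dtx4, -1.52 for Adgrg1, -1.43 for Bhlhe40, -1.24 for Adm and -0.91 for Gbp7, and Mpeg1 alone of these 14 was positive and called, at 0.89. Of the largest rises, the values were -2.43 for Trerf1, -1.99 for Cryz, -1.87 for Otud1, -1.38 for Eaf2, -1.33 for Hmces and -1.29 for S1pr2. Sspn had -1.02 and Slc24a2 -0.95, while Pip5k1b had 0.43, Crisp3 1.29 and Hdac9 1.62.

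Receptor and inhibitor genes included Cd72 at -4.13, Lilr4b at -3.16, Il9r at -2.70, Fcrl5 at -2.09, Il2ra at -2.03 and Tnfrsf17 at -1.77. Sit1 had -0.84, Cd200 -0.62, Il10ra -0.39, Fcrla -0.37, Dok3 -0.34 and the myeloid marker Adgre1 -2.11. Ptpn22 had 0.85, Cblb 1.14, Vav3 0.84, Syk -0.33 and Cd79a -0.76. In the calcium list Ppp3ca had 0.70, Micu2 0.27 and Nfatc1 -0.56.

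Early response genes were negative: Egr3 at -2.55, Nr4a1 at -1.68, Spry2 at -1.40, Dusp4 at -1.09, Nr4a3 at -1.03 (lost without any 1 of the iGC libraries), Traf1 at -1.02, Nfkbie at -0.80 and Myc at -0.60. B cell and germinal centre genes gave -1.66 for Id2, -0.99 for Pax5, -0.84 for Neil1, -0.45 for Bcl6 and -0.37 for Batf. Plasma cell and secretory genes gave -1.03 for Bhlha15, -0.72 for Ly6c2, 0.64 for Irf4 and 1.33 for Ern1. Creb3l2 had 0.24 and Cd93 0.25 (0.00896 and 0.0153 at their lowest, both not called). Of the integrated stress response list, Mthfd2 had 1.10 and Atf5 1.46.

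Death regulators gave -0.91 for Bcl2l11, -0.84 for Bcl2a1d, -0.57 for Bcl2a1b, 0.60 for Bmf, 0.61 for Birc2, 0.79 for Bbc3, 1.02 for Bcl2 and 1.20 for Cflar. Cell cycle and repair genes were negative: Rrm2 at -0.97, Cdk1 at -0.96, Cdc45 at -0.66, Cdk2 at -0.64, Parp1 at -0.42 and Cdkn2c at -0.38. The integrin chains gave -1.26 for Itgb7 and 0.39 for Itgb1, and the enzymes -0.94 for Ifi30, -0.56 for Idi1 and 0.56 for Pfkp.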

How the results depend on the processing

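The count of 607 genes became 937 with DESeq2 (602 of the 607 shared; 533 higher) and 340 with limma on log2(TPM + 0.1) (206 higher, 134 lower). In the 6 iGC libraries alone it was 1503 (764 higher, 739 lower). Added after the data were seen, leaving out the 3 IgG1 PC libraries gave 1559 (787 higher, 772 lower), and leaving out single PC libraries gave 546 to 1219, the highest, without IgG1 PC replicate 1, being 657 higher and 562 lower. Leaving out each iGC library in turn gave 323 to 403 calls. Over all single libraries left out, the higher calls ran from 161 to 657 and the lower calls from 162 to 562. Without immunoglobulin genes 546 were called, 45.1% of them higher against 51.4%, and with limma on log2(TPM + 0.1) 60.6% were higher. Genes of at least 2-fold numbered 43 with limma on log2(TPM + 1). The stage difference was called in 6733 genes and in 4345 with limma on log2(TPM + 1). It reversed on that scale for Adgre1 (0.13), Tnfrsf17 (0.013), Ppl (0.36), Gpr34 (0.0765) and Fcrl5 (0.42), and on log2(TPM + 0.1) for Fcrl5 (0.17). The cause of these changes was not tested. Of the 93 called genes named here 43 kept their call under every alternative run, 50 lost it under at least 1, and 0 reversed. Of the 23 genes named as not called, 7 stayed so and 16 were called under at least 1.

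Replicate numbers were shared but not tied to animals or cultures by the labels. Same-numbered iGC libraries deviated together with correlations of -0.0655, 0.119 and 0.0577, and 1 of 3 correlated best with its own number. A block for the replicate number gave 580 calls (544 in common with the 607) and 6533 called stage differences, without those of Nr4a3 and Cd93. Between same-numbered libraries the Ighe share differed by 81.4 points, with an exact sign-flip p of 0.25, the smallest that 3 pairs can give. The Ighe share differed by 80.9 to 82.0 points without each replicate and by 83.0 from TPM. Depth limits genes of few reads, such as Ccl4 and Tnfrsf17, most of all in IgE iGC replicate 3 at 17740876 counts.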
